A study of Mus musculus with 25 samples.

Results

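Microglia, the resident macrophages of the retina, were followed through 10 genes commonly used to recognise them in tissue RNA: the complement chains C1qa, C1qb and C1qc, the surface receptors Csf1r, Cx3cr1, P2ry12 and Trem2, and Tmem119, Aif1 and Cd68. They were taken by gene symbol from the 18440 genes listed in all 5 tables of the series, and all 10 were listed in each table. All 10 also reached the minimum of 1 FPKM (fragment counts scaled for transcript length and library size) in at least 5 of 25 libraries, which left 13117 genes for testing. None of the 10 passed the test after tunicamycin, AA147 or Ceapin-A7, and their levels varied together from library to library, those of P2ry12 and Aif1 least.

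Microglia depend on signalling through Csf1r, the receptor for colony-stimulating factor 1, for their survival. Cx3cr1 receives the neuronal ligand fractalkine, P2ry12 is a purine receptor that steers microglial processes towards extracellular nucleotides, and Trem2 is a lipid receptor that signals through the adaptor Tyrobp. C1qa, C1qb and C1qc encode the 3 chains that assemble into C1q, the recognition component of the classical complement pathway, which marks debris and synapses for removal. In the retina, resting microglia sit mainly in the synaptic layers, and loss of P2ry12 and Tmem119 with gain of lysosomal genes such as Cd68 is a textbook feature of activated cells.

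The libraries came from retinas of wild-type C57BL/6J mice injected into the vitreous at postnatal day 30 and dissected free of cornea and lens. There were 5 groups of 5 libraries. Tunicamycin, an inhibitor of N-linked glycosylation that causes endoplasmic reticulum stress, served as the positive control. AA147 is described as an activator and Ceapin-A7 as an inhibitor of ATF6, a transcription factor of the unfolded protein response. Each compound was given at 10 uM. Controls received 1 uL of saline with dimethyl sulfoxide into both eyes, although their treatment label reads PBS. The vehicle libraries formed 2 sets. AA147 was compared with vehicle set 1, and tunicamycin and Ceapin-A7 with vehicle set 2, because these tables list the same genes. Columns of the compounds are marked 24 h, and no time is marked for vehicle. Whether the 5 libraries of a group are 5 animals is not stated, so p-values measure the spread between these libraries, which may be technical. In whole retina, fewer microglia and less RNA per cell cannot be told apart.

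The libraries carried the markers of retina: the summed level of 17 retina identity genes lay between 11777 and 20216 FPKM in every library. In vehicle set 2 this sum was lower in libraries 4 and 5, at 12871 and 12160 FPKM, than in the others, at 16491 to 18612. The steps between low values gave a depth estimate for each library, between 15.1 M and 25.2 M fragments (median 23.3 M). Hspa5, the main chaperone of the endoplasmic reticulum, checked the tunicamycin label: its 5 libraries held 229.0 to 1513 FPKM against 106.4 to 161.9 in vehicle set 2. Some libraries stood apart. In tunicamycin library 1, Hspa5 was at 1513 and the lens crystallin Cryaa at 6234 FPKM, in each case the highest of the 25 libraries. Vehicle set 2 libraries 4 and 5 held more Vim, an intermediate filament of reactive glia, at 326.9 and 311.5 FPKM against 102.7 to 188.5 in the other libraries of that set. Over a list of 15 reactive glia genes the sums of these libraries were 929.5 and 606.3 FPKM. In libraries 1, 2 and 3 of the set they were 608.2, 448.6 and 270.0, so library 1 was as high as library 5. The Y-linked gene Ddx3y was at 0 in 4 of 5 libraries of vehicle set 2, in 2 of 5 of AA147 and in 2 of 5 of Ceapin-A7, and in no library of the other groups. Groups that held libraries with and without Ddx3y each drew on more than 1 animal. Most libraries of vehicle set 2 and none of tunicamycin lacked Ddx3y, so sex and compound cannot be fully told apart in that comparison. Using Ddx3y as a covariate changed no call on the 10 genes.

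The letters upstream of C1qb and C1qc are shown because these genes varied together in these libraries, and those of P2ry12 because it was the gene whose libraries separated from vehicle after Ceapin-A7. Each run holds the 250 bases before the RefSeq transcription start in GRCm38.p6, written in the direction of the gene. The motif GAGGAA, a sequence bound by the myeloid factor PU.1, is in capitals on either strand (GAGGAA or TTCCTC). Its shorter part GGAA is not marked where it stands without the leading GA.
C1qb, chr4:136886201-136886450, minus strand: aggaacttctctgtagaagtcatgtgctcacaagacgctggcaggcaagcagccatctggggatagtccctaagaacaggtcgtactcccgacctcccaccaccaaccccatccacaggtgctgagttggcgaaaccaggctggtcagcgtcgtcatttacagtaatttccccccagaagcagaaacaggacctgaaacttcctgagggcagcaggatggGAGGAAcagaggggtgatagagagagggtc
C1qc, chr4:136892915-136893164, minus strand: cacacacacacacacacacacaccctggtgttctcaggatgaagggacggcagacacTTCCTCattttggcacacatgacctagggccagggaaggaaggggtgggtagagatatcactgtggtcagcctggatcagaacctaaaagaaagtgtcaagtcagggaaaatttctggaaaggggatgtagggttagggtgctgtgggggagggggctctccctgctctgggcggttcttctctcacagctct
P2ry12, chr3:59262986-59263235, minus strand: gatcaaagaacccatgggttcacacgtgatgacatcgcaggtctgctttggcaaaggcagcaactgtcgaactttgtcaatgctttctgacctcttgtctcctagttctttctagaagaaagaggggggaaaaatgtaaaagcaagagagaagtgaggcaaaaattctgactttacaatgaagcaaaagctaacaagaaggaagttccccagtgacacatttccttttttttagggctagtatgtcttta

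Counted from -1 at the base before the start, the motif began at -30 on the gene's strand of C1qb and at -193 on the opposite strand of C1qc. No copy of the full GAGGAA was found upstream of P2ry12, whose window does hold GGAA. The RefSeq table matched 7 of the 10 genes and had no entry for C1qa, Tmem119 or Csf1r. Of these 7, C1qb, C1qc, Cd68, Aif1 and Trem2 held GAGGAA on either strand, compared with 23.3% of all 32851 upstream windows of the same length. The pairing of CCAAT and CCACG with 9 bases between them, the arrangement through which ATF6 acts on stress genes, was in none of the 7 windows and in 0.113% of all windows. CCACG alone was in 1 of the 7, that of Aif1, and in 28.3% of all windows. TGACG was in 3 of the 7, those of C1qb, Cd68 and Trem2, and in 17.8% of all windows (both strands for each motif). These letter matches describe the windows and do not show that a factor binds there.

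The C1q chains were the most abundant of the 10 in retina. Over the 10 vehicle libraries C1qc averaged 9.69 ± 1.85 FPKM (SD, n = 10), C1qb 9.14 ± 1.85 and C1qa 7.92 ± 1.2. C1qc was above C1qa in all 25 libraries of the series, C1qb above C1qa in 22 and C1qc above C1qb in 17. Within the 10 vehicle libraries, C1qb was above C1qa in 9 and C1qc above C1qb in 9. The ranges of the chains overlapped, and the ratio of C1qb to C1qc was 0.98 ± 0.11 (SD, n = 25). By the mean over all 25 libraries, the chains lay near the middle of the 18440 listed genes, C1qc at percentile 59.0.

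Csf1r followed at 3.81 ± 0.78 FPKM (SD, n = 10) in the vehicle libraries, and its highest library, 4.92, was below the lowest of C1qa, 6.37. All SDs over the 10 vehicle libraries pool both vehicle sets and include the difference between them. For Csf1r that difference passed (adjusted p 0.0224 in limma). Cd68, a lysosomal glycoprotein of phagocytes, averaged 3.31 ± 1.02 FPKM. Cx3cr1 averaged 2.25 ± 0.29 FPKM. The ranges of Csf1r and Cd68 overlapped, and so did those of Cd68 and Cx3cr1. The lower end of the order held Tmem119, a microglial membrane protein, at 1.69 ± 0.16 FPKM. Trem2 stood at 1.33 ± 0.30 FPKM, and Aif1, which encodes the calcium-binding marker IBA1, at 1.09 ± 0.31. P2ry12 had the lowest vehicle mean, at 0.92 ± 0.28 FPKM. By the mean over all 25 libraries, P2ry12 and Aif1 stood at percentiles 31.8 and 31.7 of the listed genes. Trem2, Aif1 and P2ry12 overlapped one another.

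**Figure D1:**
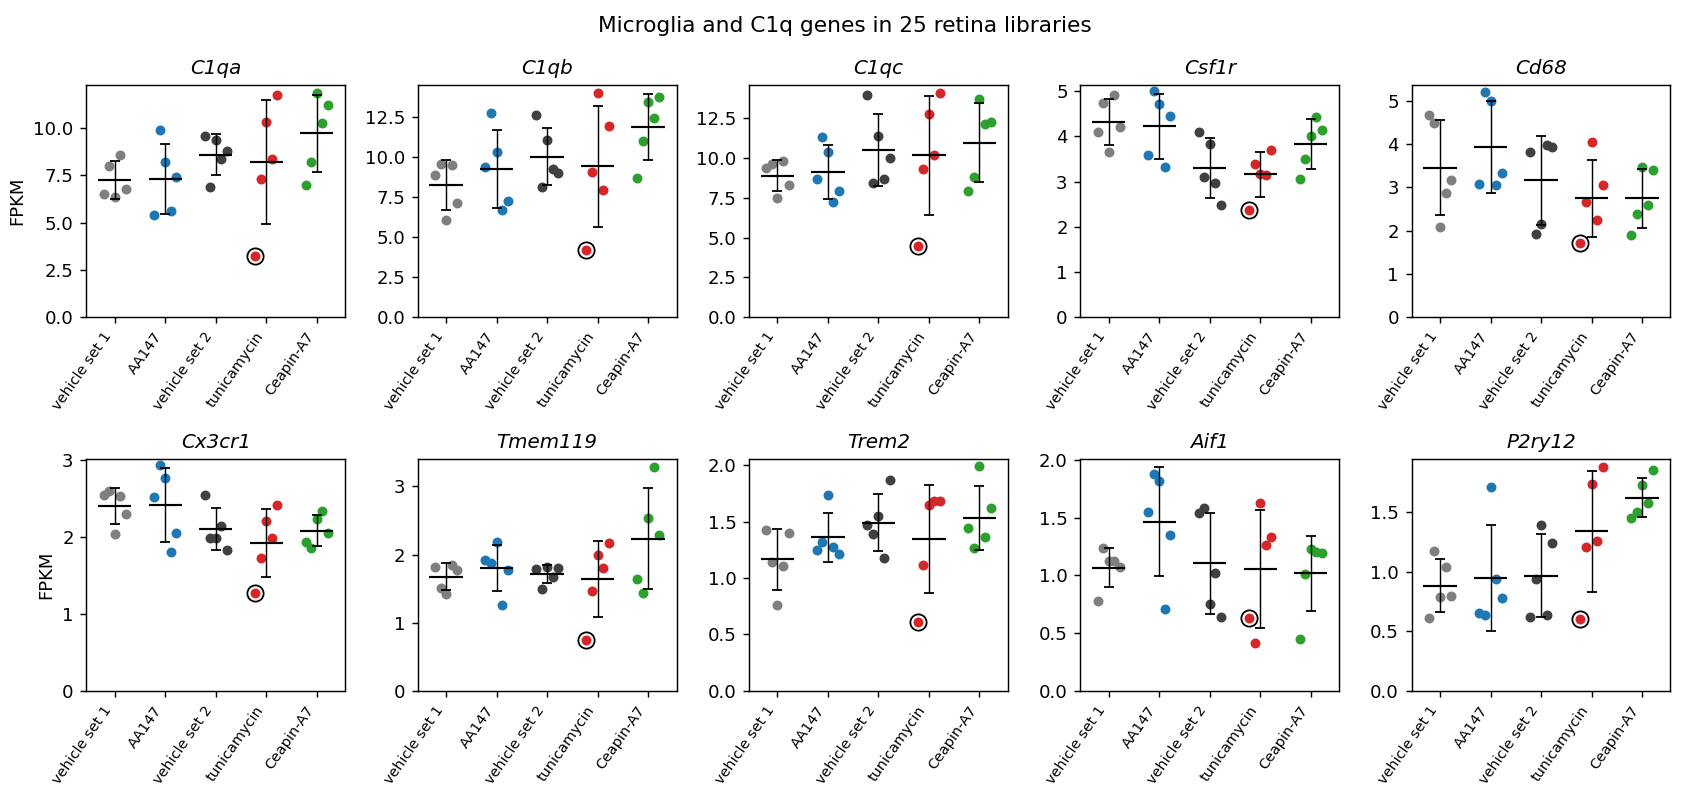
FPKM of each of the 10 genes (vertical axis, from 0) in the 25 libraries, by group of 5. Points are libraries in replicate order, bars are means with SD, and the circled point is tunicamycin library 1, which was below all 5 libraries of vehicle set 2 for all 10 genes.

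After tunicamycin the C1q chains were not shifted beyond the spread of the libraries. The spread changed with library 1: the SD of C1qc was 3.72 FPKM with it and 2.24 without it, beside 2.27 in vehicle set 2, and that of C1qa was 3.27 and 2.00, beside 1.06. C1qa was at 3.22, 7.28, 10.34, 8.35 and 11.75 FPKM in tunicamycin libraries 1 to 5 and at 9.58, 6.90, 9.36, 8.37 and 8.79 in vehicle set 2. Library 1 was far below every vehicle library and libraries 3 and 5 were above them all, so the groups overlapped. The difference for C1qa was -0.15 ± 0.21 (SE) on the log2(FPKM + 1) scale, with an adjusted p of 0.702 in limma after Benjamini-Hochberg adjustment over all tested genes. C1qb was at 4.19, 9.08, 14.03, 7.95 and 11.98 FPKM in the tunicamycin libraries against 12.61, 8.16, 11.10, 9.28 and 9.02 in vehicle set 2. C1qc was at 4.49, 9.28, 12.75, 10.16 and 14.11 FPKM against 13.94, 8.40, 11.40, 8.69 and 10.02. In both chains, as in C1qa, library 1 was the lowest and libraries 3 and 5 were the 2 highest. Their differences were -0.15 ± 0.21 for C1qb, with a limma adjusted p of 0.698, and -0.10 ± 0.20 for C1qc, with 0.799. The 95% interval for C1qc ran from -0.52 to 0.31, so changes of that size in either direction are not excluded by these libraries.

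Csf1r, the survival receptor, was at 2.38, 3.39, 3.17, 3.15 and 3.70 FPKM after tunicamycin and at 4.11, 3.11, 3.83, 2.96 and 2.49 in vehicle set 2. The groups overlapped, and the difference was -0.04 ± 0.11 with an adjusted p of 0.853 (limma, as above). Cx3cr1 spanned 1.27 to 2.41 FPKM after tunicamycin and 1.83 to 2.54 in vehicle set 2, a difference of -0.10 ± 0.10. Tmem119 spanned 0.75 to 2.17 FPKM against 1.49 to 1.82, a difference of -0.07 ± 0.14. For both genes tunicamycin libraries 1 and 2 were below all vehicle libraries; the other 3 lay within the vehicle range for Cx3cr1, and for Tmem119 libraries 3 and 5 were above it. Trem2 differed by -0.11 ± 0.12, Cd68 by -0.14 ± 0.20 and Aif1 by -0.05 ± 0.17 on the same scale. P2ry12 alone of the 10 had a positive difference, 0.24 ± 0.15, with an adjusted p of 0.337 (limma). Its tunicamycin libraries were at 0.60, 1.21, 1.74, 1.26 and 1.88 FPKM and those of vehicle set 2 at 0.62, 0.94, 1.39, 0.64 and 1.24.

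Thus 0 of 10 genes passed the limma test after tunicamycin, and 0 had an unadjusted p below 0.05, in a comparison where 8.7% of the 13117 tested genes passed and 24.6% had an unadjusted p below 0.05. The median difference of the 10 was -0.10, beside 0.01 over all tested genes, and 9 of the 10 were negative. These signs rested on 1 library. Without tunicamycin library 1, 7 of the 10 differences changed sign, 8 were positive, the median was 0.05 and the smallest adjusted p was 0.140, for P2ry12 at 0.37 ± 0.14 in limma. C1qa was then at 0.11 ± 0.16 and C1qc at 0.13 ± 0.16.

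**Figure D2:**
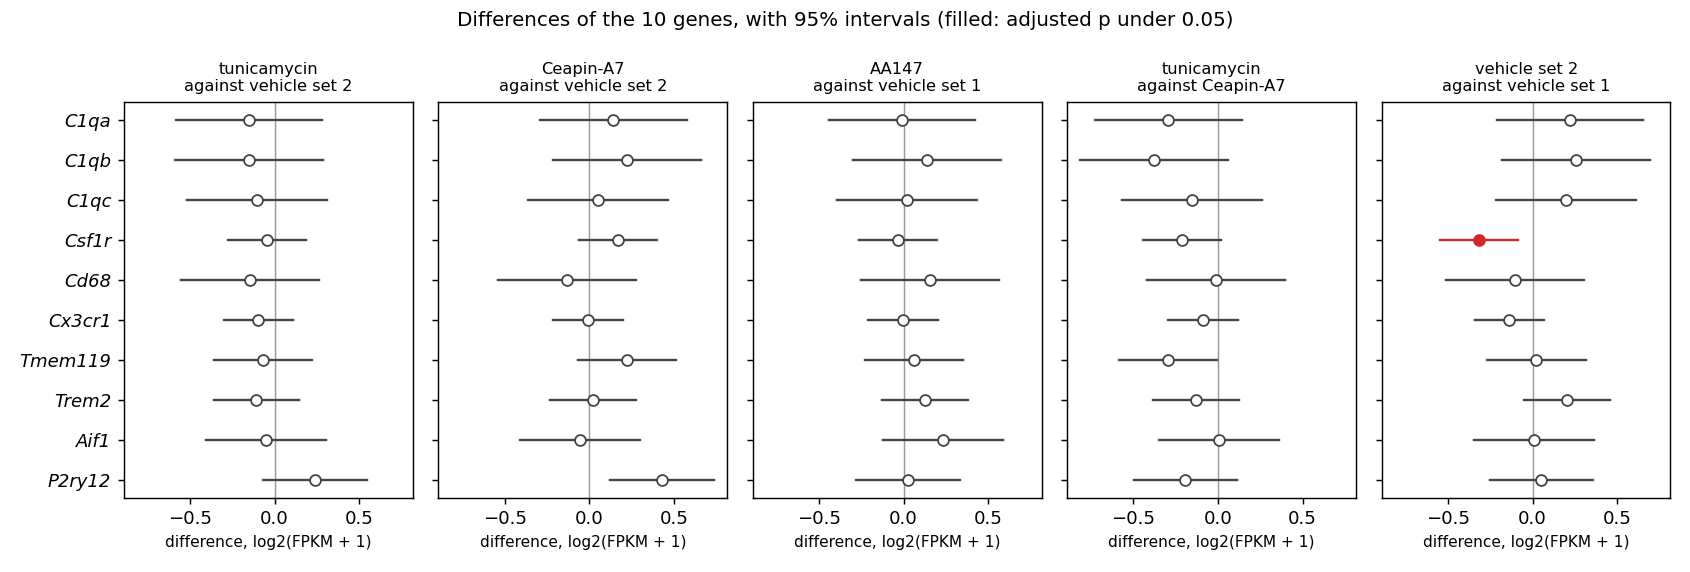
Difference of each of the 10 genes (vertical axis) on the log2(FPKM + 1) scale (horizontal axis) in 5 comparisons, with 95% intervals from the limma model. Filled red marks an adjusted p under 0.05, which only Csf1r reached, and only between the 2 vehicle sets, at -0.32; P2ry12 against vehicle set 2 stood at 0.43 after Ceapin-A7.

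After Ceapin-A7 the gene that stood furthest from vehicle was P2ry12. It was at 1.45, 1.5, 1.73, 1.58 and 1.85 FPKM in the 5 Ceapin-A7 libraries and at 0.62, 0.94, 1.39, 0.64 and 1.24 in vehicle set 2. Every Ceapin-A7 library was above every vehicle library. Such a separation upwards was seen for 1 of the 10 genes and for 0.968% of all tested genes. The difference was 0.43 ± 0.15 on the log2(FPKM + 1) scale, a 1.35-fold ratio on that scale, with a 95% interval of 0.12 to 0.74. With a pseudocount of 0.1 in place of 1 the difference was 0.75, and the ratio of the mean FPKM values was 1.68. Its unadjusted p was 0.00795 and its adjusted p 0.304 in limma, so it did not pass. The values of P2ry12 rested on an estimated 29.5 to 88.1 fragments per library, with a median of 54.1 and a counting error of about 13.6% there. With the mean of both vehicle sets as control the difference was 0.46 ± 0.13 and passed, with an adjusted p of 0.0084 in limma, a setting under which 4384 of the 13117 tested genes passed. The level was not particular to Ceapin-A7, where P2ry12 averaged 1.62 FPKM, beside 0.97 in vehicle set 2. Tunicamycin libraries 2 to 5 averaged 1.52 FPKM, with library 1 at 0.60. Without library 1, tunicamycin differed from Ceapin-A7 by -0.06 ± 0.14.

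The C1q chains overlapped vehicle after Ceapin-A7. C1qa was at 7.01, 8.20, 11.85, 10.28 and 11.24 FPKM, C1qb at 8.73, 11.02, 13.45, 12.48 and 13.76, and C1qc at 7.90, 8.83, 13.71, 12.14 and 12.23. Ceapin-A7 library 1 was the lowest of its group for each chain and library 3 the highest for C1qa and C1qc. The differences from vehicle set 2 were 0.14 ± 0.21 for C1qa, 0.22 ± 0.21 for C1qb and 0.05 ± 0.20 for C1qc. Tmem119 reached 2.53 and 3.28 FPKM in libraries 3 and 4, the 2 highest values of that gene in the series, but libraries 1 and 2 lay within the vehicle range or below it, at 1.64 and 1.44. Its difference was 0.22 ± 0.14, and that of Csf1r 0.17 ± 0.11. Cx3cr1, Aif1, Trem2 and Cd68 differed by -0.13 to 0.02. In all, 0 of 10 passed in limma and 1, P2ry12, had an unadjusted p below 0.05, in a comparison where 0% of tested genes passed and 12.3% had an unadjusted p below 0.05. The median difference of the 10 was 0.10, beside -0.00035 over all tested genes, and 7 were positive.

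After AA147 none of the 10 separated from vehicle set 1. C1qa was at 5.40, 9.89, 8.20, 5.61 and 7.41 FPKM against 6.49, 7.99, 6.37, 8.59 and 6.77 in vehicle. C1qb was at 9.38, 12.74, 10.33, 6.68 and 7.26 FPKM against 8.91, 9.58, 6.06, 9.54 and 7.15. C1qc was at 8.69, 11.30, 10.39, 7.25 and 7.90 FPKM against 9.34, 9.60, 7.46, 9.80 and 8.27. AA147 library 2 was the highest of both groups for each chain, while 2 or more AA147 libraries lay among or below the vehicle values. The differences were -0.01 ± 0.21 for C1qa, 0.14 ± 0.21 for C1qb and 0.02 ± 0.20 for C1qc. The largest difference was that of Aif1, at 0.23 ± 0.17, with AA147 libraries at 1.55, 1.88, 1.82, 0.71 and 1.35 FPKM against 0.78 to 1.24 in vehicle. For Aif1, AA147 library 4 was below all vehicle libraries and the other 4 above them. P2ry12 differed by 0.03 ± 0.15, and its libraries were at 0.65, 0.64, 1.71, 0.94 and 0.78 FPKM, 1 high value among 4 within the vehicle range. In all, 0 of 10 passed in limma and 0 had an unadjusted p below 0.05, where 0% of tested genes passed and 1.88% had an unadjusted p below 0.05. The median difference was 0.05, beside 0.01 over all tested genes.

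Tunicamycin and Ceapin-A7 could be set against each other directly, because their tables list the same genes. Here 9 of the 10 were lower after tunicamycin, with a median of -0.17, beside 0.01 over all tested genes, and 0 of 10 passed in limma where 13.3% of tested genes did. Tmem119 was the furthest by unadjusted p, at -0.30 ± 0.14 with a 95% interval of -0.59 to -0.0046, an unadjusted p of 0.0468 and an adjusted p of 0.160 in limma. C1qb differed by -0.38 ± 0.21, with an interval of -0.81 to 0.06. Without tunicamycin library 1 the median became -0.02 and 7 of the 10 were negative. The responses to 2 compounds, each against its own vehicle set, were also compared as a difference of differences. For tunicamycin minus AA147, 0 of 10 passed and 0 had an unadjusted p below 0.05, where 1.04% of tested genes passed and 15.5% had an unadjusted p below 0.05. For Ceapin-A7 minus AA147 the limma counts were also 0 of 10, where 0% of tested genes passed and 6.72% had an unadjusted p below 0.05.

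The 2 vehicle sets differed widely, with 46.8% of tested genes called between them, and across tables that list different genes. Of the 10, only Csf1r passed, lower in vehicle set 2. Csf1r was at 4.10, 4.74, 3.66, 4.92 and 4.21 FPKM in vehicle set 1 and at 4.11, 3.11, 3.83, 2.96 and 2.49 in vehicle set 2. Libraries 1 and 3 of vehicle set 2 lay within the range of vehicle set 1 and the other 3 below it. The difference was -0.32 ± 0.11, with an adjusted p of 0.0224 in limma. The call was lost without libraries 4 and 5 of vehicle set 2, those with high Vim, at -0.19 ± 0.12 with an adjusted p of 0.222. It was also lost when any 1 of 4 libraries was left out: vehicle set 1 library 2 (adjusted p 0.0549) or 4 (0.0610), or vehicle set 2 library 4 (0.0520) or 5 (0.0788), all in limma. The C1q chains were higher in vehicle set 2 by 0.20 to 0.26 without passing.

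The 10 genes varied together among libraries of the same group, P2ry12 and Aif1 least. After each group's mean was subtracted on the log2(FPKM + 1) scale, Pearson's r over the 25 libraries was 0.93 between C1qa and C1qc (Spearman's rho 0.92), 0.94 between C1qb and C1qc (0.91) and 0.88 between C1qa and C1qb (0.85). Without the 2 libraries farthest from the median, r was 0.86, 0.90 and 0.79 over 23 libraries. The ratio of C1qa to C1qc was 0.83 ± 0.08 (SD, n = 25) and stayed between 0.62 and 0.96, although C1qc itself ranged from 4.49 to 14.11 FPKM. These correlations are given as descriptions, since the genes share each library's dissection and depth.

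The coupling reached beyond the C1q chains. Against the mean of the other 9, r was 0.96 for C1qc, 0.92 for C1qa and for C1qb, 0.87 for Cx3cr1 and 0.81 for Tmem119. Csf1r followed at 0.73 and Trem2 at 0.71, then Cd68 at 0.64, Aif1 at 0.57 and P2ry12 at 0.53. Part of this rested on tunicamycin library 1 and Ceapin-A7 library 1, the 2 libraries farthest from the median of C1qc. Without them r with C1qc was 0.84 for Cx3cr1, 0.72 for Tmem119 and 0.71 for Csf1r. It was 0.59 for Trem2 and for Cd68, 0.50 for Aif1 and 0.35 for P2ry12. Aif1 rested on a median of 16.9 estimated fragments per library and Trem2 on 25.98, so that counting error alone is about 24.4% and 19.6%, beside a mean within-group CV of 33.8% and 21.97%. For C1qc, with a median of 202.5 fragments, counting error is about 7.03% against a CV of 22.1%. Cd68, with 72.9 fragments and a counting error of 11.7%, had a CV of 29.7%. P2ry12 and Cd68 showed little relation to each other, with r of 0.27 over 25 libraries and 0.06 without the 2 farthest.

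**Figure D3:**
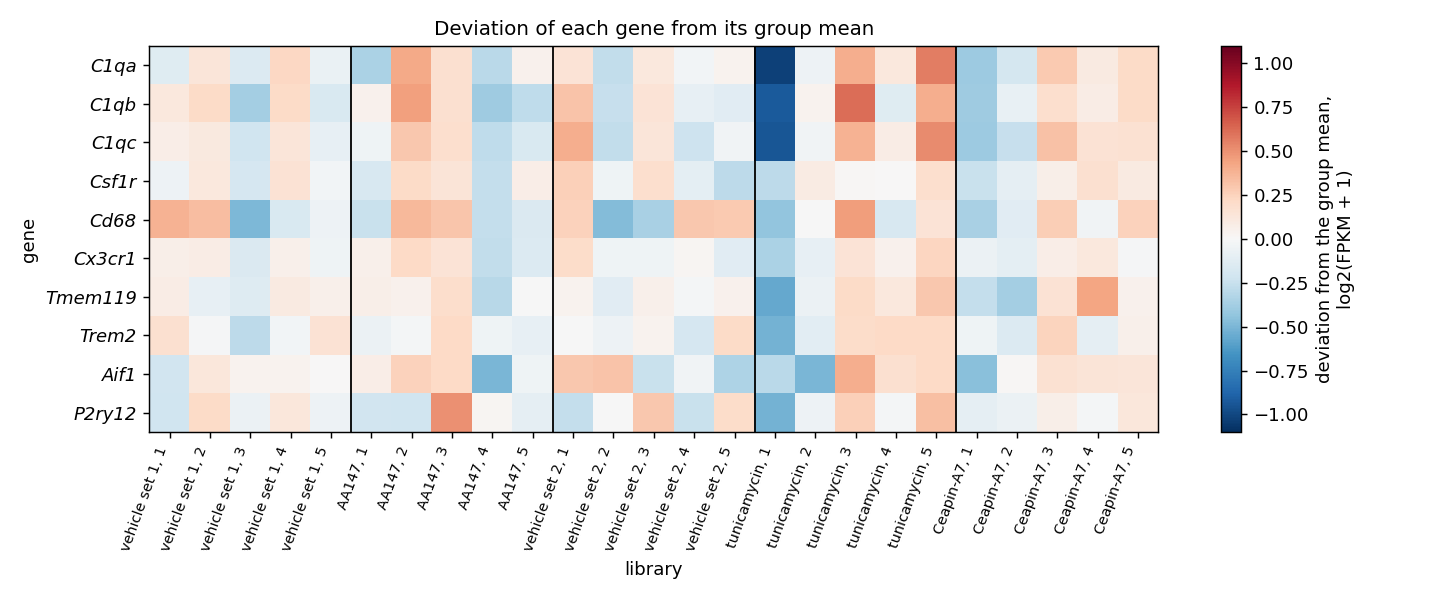
Deviation of each of the 10 genes (rows) from its group mean on the log2(FPKM + 1) scale, in each of the 25 libraries (columns, groups divided by lines). Red is above and blue below the group mean; tunicamycin library 1 is blue throughout, and most columns carry one colour over most rows.

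Tunicamycin library 1 marked the lower extreme of this shared variation. It was the lowest of all 25 libraries for 9 of the 10 genes, and for Aif1 only 2 libraries were lower. C1qa was at 3.22 FPKM there, compared with 9.43 ± 2.00 (SD, n = 4) in the other tunicamycin libraries, and Tmem119 at 0.75 compared with 1.86 ± 0.30. Trem2 stood at 0.61 FPKM compared with 1.53 ± 0.28. The estimated depth of this library was 23.5 M fragments, above the median of the series. The same library had the highest Hspa5 and Cryaa of the series. It was also the lowest of the 25 in the summed level of further lists, given here beside the range of the other tunicamycin libraries. They included retina identity (11777 FPKM, 14879 to 15912), endothelium (168.1, 168.8 to 211.0) and pigment epithelium and choroid (27.2, 30.9 to 145.7). Proliferation (65.4, 73.7 to 83.5) and phagocytosis and lysosome (665.4, 725.7 to 823.4) were among them. So were microglia ligands (263.5, 285.0 to 306.5) and cytokines and chemokines (13.2, 17.1 to 51.7). In the retina identity list, vehicle set 2 libraries 4 and 5 were also low, at 12871 and 12160 FPKM. For tunicamycin library 1 the summed level of the lens and endoplasmic reticulum stress lists was the highest of the 25. Its monocyte and macrophage list, at 55.04 FPKM, lay within the other tunicamycin libraries (51.9 to 57.5). Its lists of further microglial markers (178.15, 168.62 to 204.19) and of disease-associated microglia (1376.4, 1353.82 to 1623.02) also lay within them. Such sums weigh abundant genes most, among them Lgmn, Apoe, Ctsb and, in the monocyte and macrophage list, Nr4a1. They do not show whether the less abundant markers of these lists were low in this library. The summed level of the 10 genes was 19.9 FPKM there and 37.6 to 54.1 in the other tunicamycin libraries. The part of these in its low microglial values was not tested. Tunicamycin libraries 3 and 5, at the other extreme, were among the 5 highest of 25 for 6 and 5 of the 10 genes, with Hspa5 at 229.0 and 427.3 FPKM. Ceapin-A7 library 3 and AA147 library 3 were also high, among the top 5 for 6 and 7 genes.

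The pattern over the 25 libraries of 8 other tested genes was most like the mean of the 10 among the genes given here, by the same group-centred Pearson's r: Cyba (0.91), Laptm5 (0.91), Ly86 (0.90), Pofut2 (0.88), Gpx1 (0.88), Coro1a (0.87), Ctsb (0.87) and Prmt2 (0.87). Cyba encodes a subunit of the phagocyte NADPH oxidase, Laptm5 and Coro1a are leukocyte genes, Ly86 encodes the secreted partner of a toll-like receptor homologue, and Ctsb encodes a lysosomal protease. Their mean levels ran from 3.62 FPKM for Laptm5 to 254.2 FPKM for Ctsb. Pofut2, Gpx1 and Prmt2, at means of 23.87, 44.69 and 21.34 FPKM, are not phagocyte markers. Their r was nevertheless above that of Tmem119, Csf1r, Trem2, Cd68, Aif1 and P2ry12 with the mean of the other genes of the 10. Whether the pattern shared by the 8 genes is microglial was not tested.

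Related microglial genes were then counted in the same way, beside the shares over all tested genes. Those shares were 8.7% passed after tunicamycin, 0% after Ceapin-A7 and 0% after AA147. At an unadjusted p below 0.05 in limma they were 24.6%, 12.3% and 1.88%. Of 34 further microglial markers 21 could be tested. After tunicamycin 0 of these passed in limma, with 1 at an unadjusted p below 0.05 and a median difference of 0.01. The 3 of them with the highest mean in vehicle were Lgmn and Ctss, lysosomal proteases, and Olfml3. They averaged 104.1, 11.4 and 9.76 FPKM after tunicamycin and 100.5, 10.3 and 12.9 in vehicle set 2. The Olfml3 mean of vehicle set 2 rested on library 1, at 37.55 FPKM beside 6.08 to 7.25 in the other 4. After Ceapin-A7 and AA147 the counts that passed were also 0 of 21 in limma, with 0 and 1 at an unadjusted p below 0.05. Of 23 tested genes of the disease-associated microglial state, which include Apoe, Ctsb and Ctsd, 0 passed after any of the 3 compounds in limma, with 2, 1 and 0 at an unadjusted p below 0.05 for tunicamycin, Ceapin-A7 and AA147. Apoe, the main lipid carrier of the retina, was at 216.9 to 347.3 FPKM after tunicamycin and 231.3 to 502.0 in vehicle set 2.

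The ligands of these receptors and the engulfment machinery did not pass either. Cx3cl1, the ligand of Cx3cr1, was at 32.71, 39.88, 44.03, 44.16 and 42.74 FPKM after tunicamycin and at 43.36, 41.72, 46.89, 47.11 and 48.87 in vehicle set 2. The lowest value was again that of library 1, and the difference of -0.17 ± 0.06 had an adjusted p of 0.0977 in limma. Over 13 tested ligands and checks 0 passed after tunicamycin in limma (4 unadjusted), and over 19 tested genes of phagocytosis and lysosome 0 passed (2 unadjusted). After Ceapin-A7 the same lists gave 0 and 0 (2 and 0 unadjusted), and after AA147 0 and 0 (0 and 0 unadjusted). Over all tested genes 8.7% passed after tunicamycin (24.6% unadjusted), 0% after Ceapin-A7 (12.3%) and 0% after AA147 (1.88%).

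Outside the C1q chains, 1 complement gene passed after tunicamycin in limma, of 19 that could be tested and 31 on the list, with 5 at an unadjusted p below 0.05. Over all tested genes 8.7% passed and 24.6% had an unadjusted p below 0.05. Calr, which encodes calreticulin, an endoplasmic reticulum chaperone that at the cell surface binds C1q, rose by 0.95 ± 0.20, with an adjusted p of 0.00421 in limma. Calr stood at 896.6 FPKM in tunicamycin library 1 and at 243.3 to 412.5 in the other 4, against 200.03 to 245.6 in vehicle set 2. Without library 1 the difference of Calr was 0.67 ± 0.12. Calr did not pass with Ddx3y as a covariate, at 0.78 ± 0.24 and an adjusted p of 0.073, or when only tunicamycin and vehicle set 2 were fitted, with 0.154 (both limma). Clu, the abundant fluid-phase regulator clusterin, was at 343.8 to 504.3 FPKM after tunicamycin and 428.5 to 697.7 in vehicle set 2, and did not pass. The other regulator of high level, Vtn, was at 282.6 to 405.7 and 272.7 to 436.6 FPKM. After Ceapin-A7 and after AA147, 0 of 19 complement genes passed in limma, with 3 and 0 at an unadjusted p below 0.05. Of all tested genes 0% passed after either compound, with 12.3% and 1.88% unadjusted.

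**Figure D4:**
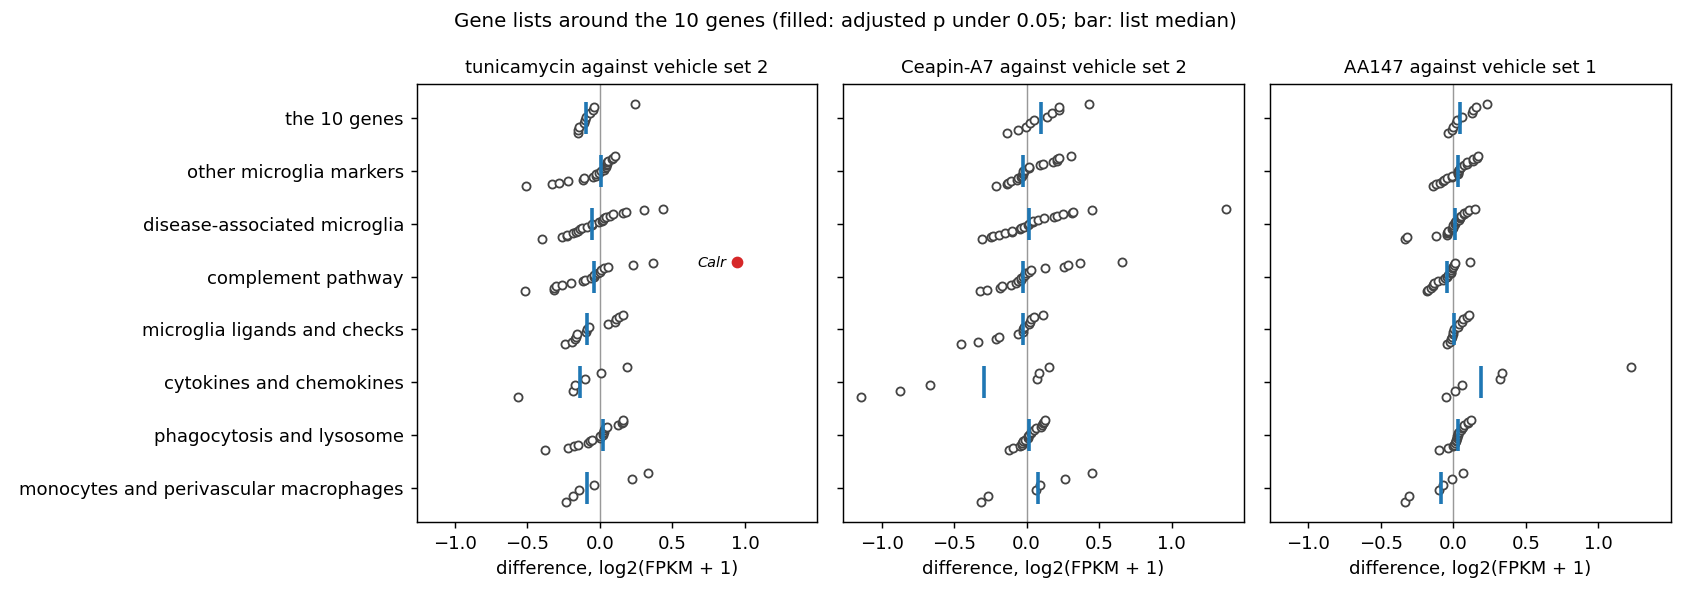
Difference of each tested gene (points) on the log2(FPKM + 1) scale, for the 10 genes and 7 surrounding lists (vertical axis), after each compound against its own vehicle set. Filled points passed at an adjusted p under 0.05 and blue bars are list medians; Calr, at 0.95 after tunicamycin, is the only filled point among the genes shown.

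Markers of other immune cells were sparse. Of 22 cytokine and chemokine genes 6 could be tested, and 0 passed after any compound in limma, with 0, 0 and 1 at an unadjusted p below 0.05 for tunicamycin, Ceapin-A7 and AA147. That gene was Cxcl10, singled out here after its values were seen. Of all tested genes 8.7%, 0% and 0% passed in the same order, and 24.6%, 12.3% and 1.88% were unadjusted hits. Cxcl10, an interferon-induced chemokine, was at 1.74, 5.27, 2.36, 2.41 and 2.34 FPKM after AA147 and at 0.80, 0.34, 0.52, 0.70 and 0.52 in vehicle set 1. All 5 AA147 libraries were above all 5 vehicle libraries, as for 0.45% of tested genes, but the difference of 1.22 ± 0.48 had an unadjusted p of 0.0173 and did not pass. In vehicle set 2, Cxcl10 reached 7.83 and 9.82 FPKM in libraries 4 and 5. Cxcl16 and Il18, the most abundant of the list, were at 3.07 to 9.41 and 4.00 to 6.38 FPKM after tunicamycin, overlapping vehicle.

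Of 20 monocyte and perivascular macrophage markers 6 could be tested, of 12 neutrophil markers 3 and of 17 lymphocyte and dendritic cell markers 2. After each compound against its own vehicle set, 0 of these passed in limma, and the only unadjusted p below 0.05 were for 2 of the 6 monocyte and macrophage markers after tunicamycin. Among all tested genes 8.7% passed after tunicamycin and 24.6% had an unadjusted p below 0.05. For Ceapin-A7 and AA147 0% passed, with 12.3% and 1.88% unadjusted. The summed level of the monocyte and macrophage list was 51.9 to 57.5 FPKM after tunicamycin and 38.1 to 61.4 in vehicle set 2. That of the neutrophil list was 18.9 to 57.5 and 18.5 to 76.7. The neutrophil list shares a tested gene with the list of reactive glia genes, so its sum need not reflect neutrophils. The part of monocytes and macrophages in the levels of Csf1r, Aif1 and Cd68, which they also express, was not tested. Between tunicamycin and Ceapin-A7, 6 of the 42 tested genes of the microglial, ligand, macrophage and neutrophil lists passed in limma, 14.3% beside 13.3% of all tested genes: Rnase4 (-0.53), Gas6 (-0.23) and Stab1 (-0.33) were lower after tunicamycin, and Nr4a1 (0.65), Sema4d (0.19) and S100a8 (0.86) higher. Of these, Nr4a1, an immediate early gene also used as a monocyte marker, was at 26.52 to 33.92 FPKM after tunicamycin and 14.69 to 21.43 after Ceapin-A7. All its tunicamycin libraries were above all its Ceapin-A7 libraries, as for 6.73% of tested genes. Nr4a1 passed under all 19 other settings tried, Gas6 in 14 of 19, Rnase4 in 11 of 19, Sema4d in 5 of 19, S100a8 in 3 of 19 and Stab1 in 5 of 18.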

How the data were processed

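Bulk RNA sequencing of 25 mouse retina libraries was deposited as 5 tables of FPKM per gene and library. Per the submitters' processing notes the tools were HISAT2 2.0.4, RSEM 1.2.18 and DESeq2 1.4.5 with build GRCm39; their roles are not given there. The FPKM values were made and deposited by the authors, without counts. FPKM is scaled to each library's total, so a large change in abundant genes moves the values of the others.

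The 18440 genes listed in both table families (18676 and 19102 genes) were joined, and 13117 with at least 1 FPKM in at least 5 libraries were tested with limma 3.58.1 (R 4.3.3), with trend, on log2(FPKM + 1), in one model of 5 groups. Tests were two-sided, with Benjamini-Hochberg adjustment over all 13117 genes and a threshold of 0.05. Fold changes on this scale understate the change of low genes. The script was tested on simulated data. The vehicle sets were processed in separate tables, and batch and group cannot be told apart between them.

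The 10 genes and the gene lists were chosen with earlier results of these data known. From the lists, genes were named when called (at most 6 per list and comparison, by size) or among the 3 most abundant in vehicle, and not all of them are given. A few genes are not reported here, and list counts and likeness leave them out. Depth was estimated from 4476 genes with 1 coding transcript in GENCODE vM21 (GRCm38), by finding the depth at which low values lie nearest to whole fragments, with transcript length less 250 bases. The longest coding transcript then gave fragments per gene. Counting errors cover sampling of fragments only. No 2 libraries held the same values. Alternatives covered the pseudocount, filter, scaling, weights, covariate, block, libraries and control.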

Additional observations from a re-analysis of the deposited data

Results flagged for a closer look

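In groups of 5 libraries, a value was listed here when its gap to the nearest other value was large against the range of the group by Dixon's criterion, which chance alone meets in about 1 in 20 groups. Of 210 groups (42 named genes in 5 groups) 17 met it, 3 of them among the 50 groups of the 10 microglial and C1q genes. P2ry12 was at 1.71 FPKM in AA147 library 3, beside 0.64 to 0.94 in the other 4. Trem2 was at 1.74 FPKM in the same library, beside 1.21 to 1.32. Aif1 was at 0.45 FPKM in Ceapin-A7 library 1, beside 1.01 to 1.23.

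Among other named genes, tunicamycin library 1 stood apart with 1513 FPKM of Hspa5, 343.2 of Ddit3, 180.7 of Sdf2l1 and 896.6 of Calr, all high, and 70.97 of Gas6, low. Olfml3 was high in vehicle set 2 library 1, at 37.55 FPKM, and in tunicamycin library 5, at 16.52 FPKM. The chemokine Ccl2 was high in vehicle set 1 library 1, at 3.77 FPKM, in vehicle set 2 library 4, at 22.09, and in tunicamycin library 3, at 9.75. Cxcl10 was high in AA147 library 2, at 5.27 FPKM, and in tunicamycin library 3, at 7.64. S100a8 was high in vehicle set 1 library 1, at 1.33 FPKM, and Ddit3 low in Ceapin-A7 library 3, at 39.31.

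For 2 named genes the response to tunicamycin and the response to AA147, each against its own vehicle set, differed by the limma test of that difference. The difference was 2.25 for Hspa5 (adjusted p 0.00307) and 2.76 for Sdf2l1 (0.000744) on the log2(FPKM + 1) scale. None of the 10 microglial and C1q genes was among them.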

How the results depend on the processing

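For tunicamycin against vehicle set 2, AA147 against vehicle set 1, tunicamycin against Ceapin-A7 and both differences between responses, 0 of 10 genes passed under every alternative run, leave-one-out included. For Ceapin-A7 against vehicle set 2 the count was 1, P2ry12, with the mean of both vehicle sets as control, and 0 under the other alternatives. Between the vehicle sets the count of 1, Csf1r, became 0 with sample weights (adjusted p 0.123 in limma) and 0 without libraries 4 and 5 of vehicle set 2, and leaving out 1 library at a time gave 0 to 1. The cause was not tested. Signs of differences that did not pass changed in 22 of 220 values for tunicamycin, 16 of 210 for Ceapin-A7 and 24 of 199 for AA147, and no call reversed. With a pseudocount of 0.1 the P2ry12 difference after Ceapin-A7 was 0.75, beside 0.43. In a fit of its own table family alone, P2ry12 fell under the filter for AA147 and gave no value.

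The count of all genes called after tunicamycin, 1141, was 430 with Ddx3y as a covariate, 389 in its own table family, 86 with only the groups compared, 5743 with both vehicle sets as control and 611 to 1985 when 1 library was left out (lowest without tunicamycin library 1, highest without library 3). With the replicate block it was 1115, and 0 of 10 genes passed after each compound and 1 between vehicle sets, as without it. Whether same-numbered libraries belong together is not stated. Those of compound and vehicle correlated from -0.434 to 0.47 in their deviations, which cannot settle whether they were handled as pairs. Leaving out tunicamycin library 1 together with libraries 4 and 5 of vehicle set 2, chosen after seeing the data, gave 0 of 10 and 772 genes. Depth limits Aif1 and Trem2 most, whose counting error alone is about 24.4% and 19.6%.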
